A study of Mus musculus with 3 samples.

Results

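The Hox cluster genes are homeobox transcription factor genes that lie side by side in 4 chromosomal clusters, Hoxa, Hoxb, Hoxc and Hoxd. The genes described here are all those for which a probe set carried a single platform symbol made of Hoxa, Hoxb, Hoxc or Hoxd and a number. There were 37 such genes, each with 1 probe set, among 19938 genes measured in all. The probe set that names Hoxb8 also names Hoxb7 and was kept apart.

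The RNA came from kidney cortex cells of adult male Ren1c-YFP mice that were selected by flow sorting for yellow fluorescent protein, which in these transgenic animals marks the renin-producing juxtaglomerular cells. Every mouse had been given captopril, which blocks angiotensin-converting enzyme, at 0.5 mg/ml in drinking water together with low-salt chow over 2 weeks. The strain is unspecified, samples were not pooled, and the cortex was digested with collagenase A before the sort. The series holds 1 group of 3 single-colour arrays, replicates 2, 4 and 5, so the question the data can answer is which Hox genes stood above background in these cells and how far the arrays differed, not what captopril or salt did. No label ties each array to a separate animal, so a p-value here speaks only to the spread of these 3 samples, which may be technical.

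Hox genes are numbered by paralog group, from the 3′ end of a cluster (group 1) to its 5′ end (group 13), and members of a group in different clusters descend from one ancestral gene. In the embryo low-numbered genes are used from the hindbrain on and high-numbered ones in the trunk, limbs and tail, which is called collinearity. Hox proteins bind DNA with the TALE homeodomain proteins Pbx and Meis. In the developing kidney the group 10 and 11 genes are known to act in stroma and nephron progenitors, and Hoxb7 is used in the ureteric bud, from which collecting ducts form.

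A gene was called above background when limma's one-sided test of its log2 signal against the array's background level gave an adjusted p under 0.05 over all genes. That level, below which 95% of olfactory receptor genes lay on an array, was 6.20, 6.32 and 6.50 in replicates 2, 4 and 5. Of the 37 Hox genes 21 were called (56.8%), where 37.3% of all genes were. With other background levels, given below, the Hox share was above, near or below that of all genes. The median Hox gene lay 0.56 log2 units above background and the median of all genes at -0.01. Of the members, 20 stood above the level on all 3 arrays (41.9% of all genes did), 11 on none and 6 on some. Signals of different probe sets also depend on probe affinity, so each height is read against background and not against another gene. In bulk RNA of sorted cells, fewer cells of a type and less RNA per cell cannot be told apart.

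Markers of several kidney cell types were measured in the same samples, and their counts are read against the 37.3% of all genes called. Smooth muscle markers were called in 9 of 10 cases (Acta2 at 12.62 ± 0.06 and Tagln at 10.58 ± 0.28, mean log2 signal ± SD, n = 3 here and below) and pericyte markers in 8 of 9 (Rgs5 12.37 ± 0.10, Pdgfrb 7.90 ± 0.38). So were 12 of 12 proximal tubule markers (Lrp2 10.94 ± 0.34, Slc34a1 11.26 ± 0.50), 7 of 7 of the thick ascending limb (Umod 11.79 ± 0.57, Slc12a1 10.44 ± 0.82) and 4 of 6 of the distal and connecting tubule (Slc12a3 9.09 ± 0.42, and Pvalb 5.40 ± 0.37, not called). Among collecting duct cells, 7 of 9 principal cell markers (Aqp2 8.23 ± 0.23, Aqp3 7.45 ± 0.26) and 8 of 8 intercalated cell markers (Atp6v1g3 11.09 ± 0.23, Atp6v0d2 8.52 ± 0.27) were called, the latter in 5 without replicate 4. Endothelial markers were called in 7 of 12 cases (Pecam1 7.57 ± 1.27, Cdh5 7.46 ± 1.10), and in 3 without replicate 2. Fibroblast markers were called in 4 of 10 cases (Col1a1 7.78 ± 0.03, and Pdgfra 6.08 ± 0.19, not called). These fibroblast calls, and those that follow, are near the share of all genes. Podocyte markers were called in 2 of 6 (Nphs1 6.27 ± 0.27 and Podxl 6.59 ± 0.40 were not) and macrophage markers in 3 of 9 (Adgre1 4.92 ± 0.06 and Cd68 6.43 ± 0.27 were not). Renin's own transcript was not analysed here. Renin cells can themselves express smooth muscle and pericyte genes. Which cells held a Hox or marker transcript, and the part of each cell type in a Hox call, was not tested.

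**Figure D1:**
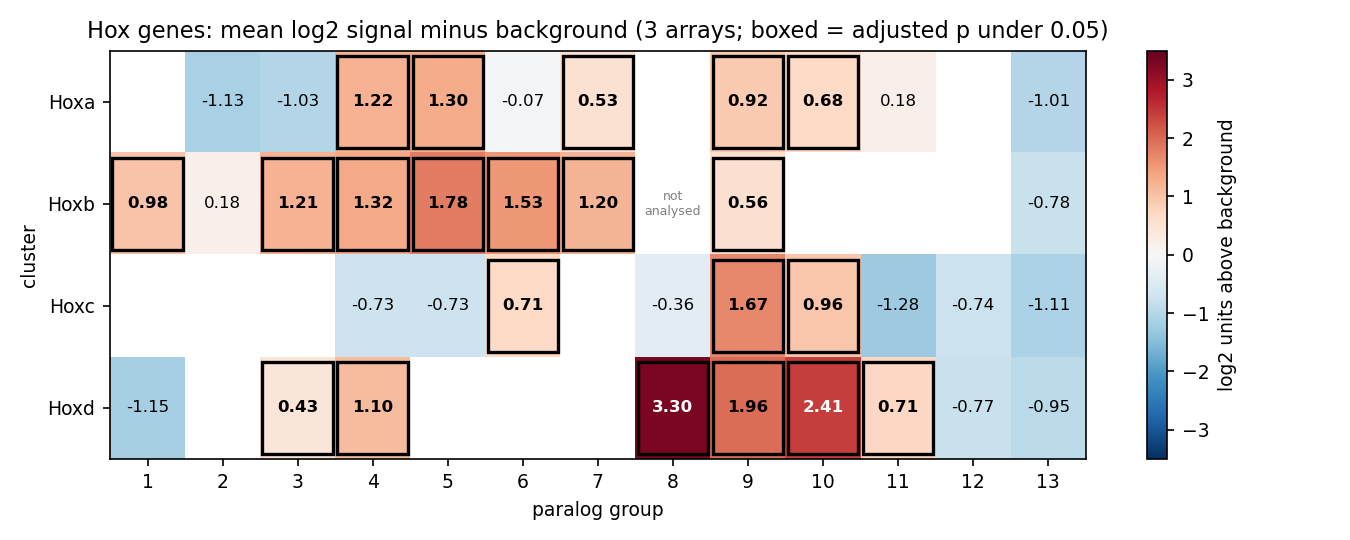
Mean log2 signal minus the background level over 3 arrays for each Hox gene, with clusters as rows and paralog groups as columns; boxed cells passed limma's one-sided test at an adjusted p of 0.05, and empty white cells hold no gene used here, and Hoxb8 is marked as not analysed. The 21 boxed genes lie mostly in groups 3 to 11, and no gene of groups 12 and 13 is boxed.

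Called genes were found in every paralog group from 1 to 11 except group 2. Counts by group are read against the 37.3% of all genes called. In paralog groups 4 to 8, 10 of 14 genes were called (71.4%), with a median 1.15 above background. With background at the 99th percentile 2 of these 14 were called, a share below the 16.6% of all genes. At that level 3 of 16 were called in groups 9 to 13, near the share of all genes. In groups 9 to 13, planned as 1 set, 8 of 16 were called (50%), with a median of 0.37. A split of that set after group 11 was not planned and falls where the calls stop, so its counts only describe these calls. In groups 9 to 11, 8 of 10 were called (80%), with a median of 0.82. Without replicate 4 the count in groups 9 to 11 was 5 of 10, where 32.1% of all genes were called. In groups 1 to 3, 3 of 7 were called (42.9%), near the share of all genes, with a median of 0.18. In groups 12 and 13 none of 6 was called, either by adjusted p or at an unadjusted p under 0.05, and the 6 genes lay from -1.11 to -0.74 against background. Every measured gene was called in group 7 (2 of 2), group 9 (4 of 4) and group 10 (3 of 3). Without replicate 2, and likewise without replicate 4, these counts were 1, 3 and 2. Within clusters there were 33 pairs of neighbouring measured genes, with Hoxb7 and Hoxb9 taken as a pair because Hoxb8 was kept apart. Both genes were called in 14 pairs, neither in 6 and 1 of the pair in 13. Of all Hox genes 56.8% were called, and whether neighbours were called together more often than that share gives was not tested.

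The Hoxd cluster held 6 called genes of 9 (66.7%), where 37.3% of all genes were called. Hoxd8, a gene of the cluster's middle, had log2 signals of 9.92, 9.74 and 9.25 in replicates 2, 4 and 5. It lay 3.30 above background (SE 0.28, limma adjusted p = 2.17e-05), and the lowest array was still 2.75 above its level. Hoxd9 had signals of 8.32, 8.24 and 8.34, a spread of 0.10 between the highest and lowest array, and lay 1.96 above background (SE 0.22, limma adjusted p = 0.000116). Hoxd10, which acts in limb and kidney development, stood at 8.84, 9.14 and 8.27, lowest on replicate 5, and lay 2.41 above background (SE 0.28, limma adjusted p = 0.000131). Hoxd8, Hoxd9 and Hoxd10 were still called with background set at the 99th percentile of those receptor genes.

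The rest of the Hoxd cluster held both called and uncalled genes. Hoxd11, the Hoxd gene known with Hoxa11 for its part in metanephric kidney growth, had signals of 6.88, 7.16 and 7.13, above the level on every array (0.71 above, limma adjusted p = 0.00556), and narrowly missed the threshold without replicate 4 (limma adjusted p = 0.0508). The next 2 genes toward the 5′ end were below the level on all 3 arrays, Hoxd12 at 5.55, 5.53 and 5.63 and Hoxd13, a gene of digits and genital tubercle, at 5.52, 5.10 and 5.57. Toward the 3′ end, Hoxd4 (7.16, 7.69 and 7.46) and Hoxd3 (6.72, 6.91 and 6.70) were called and lay 1.10 and 0.43 above background, and Hoxd1 (5.13, 5.14 and 5.30) lay below the level on every array. Hoxd3 passed with a limma adjusted p of 0.0402 and missed the threshold when replicate 2 (limma adjusted p = 0.151) or replicate 4 (0.222) was left out.

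Promoter sequences are shown for 3 genes of the Hoxd cluster, 2 called and 1 not, whose CpG content differs. The 250 bases before the RefSeq start are given for Hoxd8 (chr2:74704365-74704614, plus strand), Hoxd10 (chr2:74691641-74691890, plus strand) and Hoxd13 (chr2:74667975-74668224, plus strand), all GRCm38.p6, with CpG dinucleotides in capitals.
Hoxd8: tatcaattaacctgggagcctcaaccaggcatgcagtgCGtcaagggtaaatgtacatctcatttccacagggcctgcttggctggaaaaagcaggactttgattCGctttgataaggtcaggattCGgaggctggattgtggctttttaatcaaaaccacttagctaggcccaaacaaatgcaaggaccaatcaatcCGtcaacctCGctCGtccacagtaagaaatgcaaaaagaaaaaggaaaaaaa
Hoxd10: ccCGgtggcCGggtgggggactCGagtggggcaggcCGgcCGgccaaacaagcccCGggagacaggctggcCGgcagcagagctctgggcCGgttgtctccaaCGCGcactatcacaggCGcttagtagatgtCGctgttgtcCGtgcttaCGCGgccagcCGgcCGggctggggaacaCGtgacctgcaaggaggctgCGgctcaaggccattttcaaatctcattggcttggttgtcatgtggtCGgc
Hoxd13: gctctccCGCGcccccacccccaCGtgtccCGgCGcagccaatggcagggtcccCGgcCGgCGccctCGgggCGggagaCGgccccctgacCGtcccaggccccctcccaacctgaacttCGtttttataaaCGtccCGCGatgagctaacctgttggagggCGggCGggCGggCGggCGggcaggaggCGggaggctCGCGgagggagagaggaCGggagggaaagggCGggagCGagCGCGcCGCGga
Hoxd8 held 6 CpG dinucleotides at 44.4% GC, Hoxd10 held 20 at 65.6% and Hoxd13, which was not called, 31 at 74.4%. The other windows of called Hoxd genes held 2 and 20 (Hoxd11), 13 (Hoxd9), 12 (Hoxd3) and 3 (Hoxd4). Those of Hoxd genes not called held 10 (Hoxd12) and 24 (Hoxd1). RefSeq promoters were at hand for 21 of the 37 Hox genes, in 23 windows. Their median was 13 CpG dinucleotides, against 6 over 32851 windows of all genes. The 14 windows of called Hox genes had a median of 9.5 (range 2 to 28) and the 9 windows of genes not called 18 (range 6 to 35), so the ranges overlapped. The Pbx-Hox composite letters TGATNNAT, read on both strands, were in 3 of 23 Hox windows and in 7.68% of all windows. A CCAAT box (CCAAT, both strands) was in 13 (56.5%) against 33.8%, and a TATA box (TATAAA, both strands) in 3 against 12.4%. These matches describe letters only, and no binding was measured.

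In the Hoxb cluster 7 of 9 genes were called (77.8%), where 37.3% of all genes were. With background at the 99th percentile 1 of 9 was called, a share below the 16.6% of all genes. Hoxb5, a paralog of the lung and vessel gene Hoxa5, stood at 8.12, 8.66 and 7.59 in replicates 2, 4 and 5 and lay 1.78 above background (SE 0.28, limma adjusted p = 0.000687). Hoxb6 stood at 7.50, 8.17 and 7.93 (1.53 above, limma adjusted p = 0.000425). Hoxb7, the ureteric bud gene, had nearly equal signals of 7.60, 7.44 and 7.57 and lay 1.20 above background (SE 0.20, limma adjusted p = 0.000849). The probe set shared by Hoxb8 and Hoxb7 stood at 8.32, 8.54 and 7.84, which was 1.90 above background, and cannot be split between these neighbours.

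Toward the 3′ end of Hoxb, the hindbrain gene Hoxb3 (7.33, 7.79 and 7.54) and Hoxb4, also known from blood stem cells (7.49, 7.74 and 7.75), were called at 1.21 and 1.32 above background. Hoxb1, a gene of hindbrain segment identity, was called too (7.15, 7.26 and 7.57, limma adjusted p = 0.00154), with Hoxb2 between them not called (6.54, 6.71 and 6.31, limma adjusted p = 0.347). At the other end Hoxb9 passed (6.97, 7.16 and 6.57, 0.56 above, limma adjusted p = 0.0345), but not when replicate 2 (limma adjusted p = 0.161) or replicate 4 (0.169) was left out. Hoxb13, the outlying gene used in prostate and tail, was below the level throughout (5.42, 5.47 and 5.79). Of the Hoxb genes only Hoxb5 was called at the 99th percentile level (limma adjusted p = 0.0449), and Hoxb6 just missed it (limma adjusted p = 0.0551).

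In the Hoxa cluster 5 of 10 measured genes were called (50%), where 37.3% of all genes were. Without replicate 2 or without replicate 4 the count was 3 of 10, near the 30.3% and 32.1% of all genes called in those fits. Hoxa4 had close signals of 7.51, 7.49 and 7.68 and lay 1.22 above background (limma adjusted p = 0.000687). Hoxa5, known from lung and gut mesenchyme, had signals of 7.87, 8.19 and 6.86, so replicate 5 lay over a log2 unit below the other arrays (1.30 above background, SE 0.31, limma adjusted p = 0.00528). Hoxa9, a regulator of blood progenitors, stood at 7.05, 7.35 and 7.39 (0.92 above, limma adjusted p = 0.00204).

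Further Hoxa calls were lost when replicate 2 or 4 was left out. Hoxa7 (6.88, 6.74 and 6.99) and Hoxa10, which patterns the uterus and kidney stroma (7.17, 7.11 and 6.79), lay 0.53 and 0.68 above background. Without replicate 2 their limma adjusted p were 0.0943 and 0.0818, and without replicate 4 they were 0.0720 and 0.0590. Hoxa11 was above the level on replicates 2 and 4 and below it on replicate 5 (6.97, 6.62 and 5.99) and was not called (limma adjusted p = 0.494), but passed without replicate 5 (limma adjusted p = 0.0351). Hoxa6 lay at the level itself (6.22, 6.32 and 6.27). Hoxa2 (5.21 ± 0.30), Hoxa3 (5.32 ± 0.09) and the limb and genital gene Hoxa13 (5.33 ± 0.10) were below it on every array.

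In the Hoxc cluster 3 of 9 genes were called (33.3%), near the 37.3% of all genes, and the cluster's median lay at -0.73 against background. Hoxc9 stood at 8.17, 7.90 and 7.98, well above the level on each array (1.67 above, SE 0.22, limma adjusted p = 0.000273), and was called at the 99th percentile level too (limma adjusted p = 0.0187). Its 5′ neighbour Hoxc10, a hindlimb gene, stood at 6.96, 7.73 and 7.21 (0.96 above, limma adjusted p = 0.00389). Hoxc6 stood at 7.31, 7.34 and 6.50, on replicate 5 no higher than that array's level, and passed (limma adjusted p = 0.0286) but not when replicate 2 (limma adjusted p = 0.162) or replicate 4 (0.0905) was left out.

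The other Hoxc genes were not called. Hoxc8, between Hoxc6 and Hoxc9, had signals of 6.21, 5.80 and 5.93 and reached the level on replicate 2 only. Hoxc4 (6.22, 5.37 and 5.24) also reached it on that array only, and Hoxc5 (5.61 ± 0.23) on none. At the 5′ end Hoxc11 (5.06 ± 0.28), Hoxc12 (5.60 ± 0.29) and the hair follicle gene Hoxc13 (5.23 ± 0.26) were below the level on all 3 arrays.

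**Figure D2:**
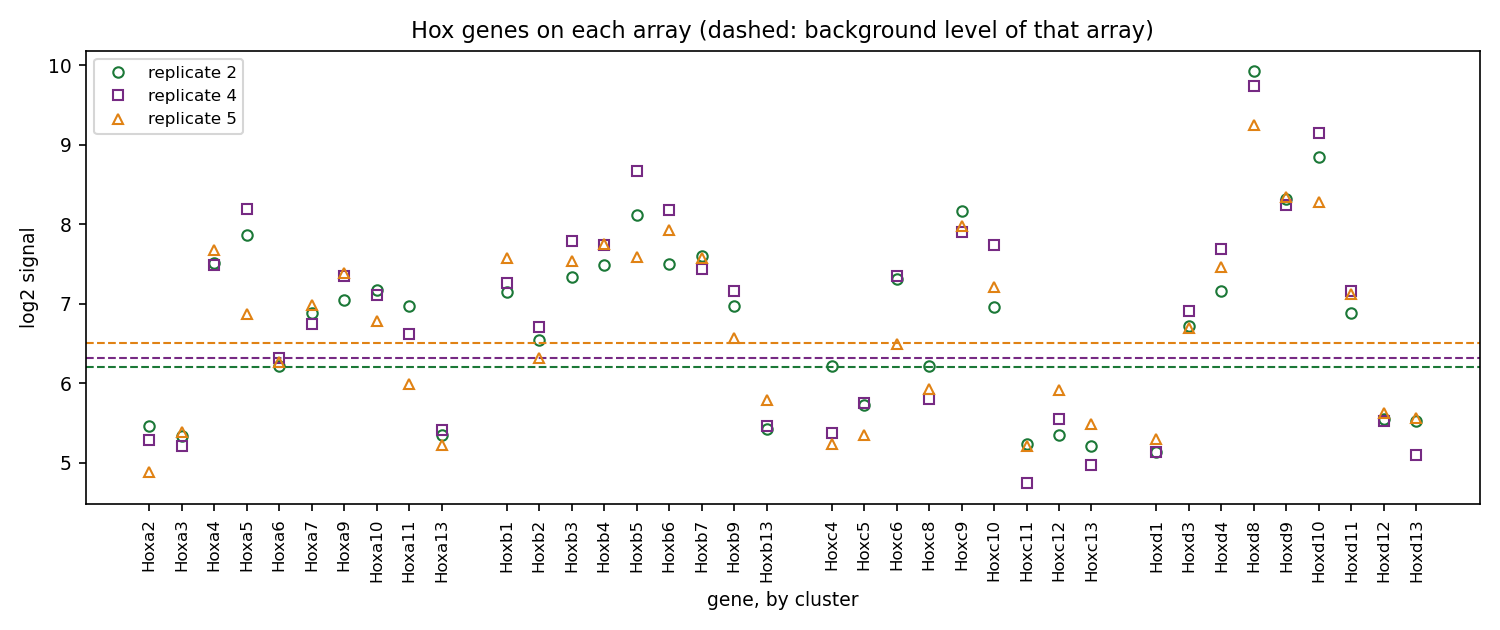
Log2 signal of each of the 37 Hox genes on each array, in cluster order, with the background level of each array as a dashed line in that array's colour (6.20, 6.32 and 6.50). Hoxd8 to Hoxd10, Hoxc9 and Hoxb3 to Hoxb7 lie above all 3 lines on every array, while the genes of groups 12 and 13 lie below them.

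How many Hox genes were called changed with the background level, and so did their share against that of all genes. With the 99th percentile 5 of 37 were called (Hoxb5, Hoxc9, Hoxd8, Hoxd9 and Hoxd10), a share below the 16.6% of all genes. With the 90th percentile 23 of 37 were called, a share above the 50.0% of all genes. With a level from vomeronasal receptor genes 25 of 37 were called, a share near the 65.9% of all genes. In a check chosen after the data were seen, with a level from keratin-associated protein genes, 0 were called by limma and 3.56% of all genes. At an unadjusted p under 0.05 there was 1, Hoxd8 (limma unadjusted p = 0.0236). Across the levels tried no gene of groups 12 and 13 was called, nor were Hoxa2, Hoxa3, Hoxc4, Hoxc5, Hoxc11 and Hoxd1. Leaving out replicate 2, 4 or 5 gave 16, 15 and 22 called Hox genes, where 30.3%, 32.1% and 39.2% of all genes were called, and 15 of the 21 were called in each of these fits. The count was 21 with probe set means (37.1% of all genes), quantile normalization (37.7%), median centring (37.3%) and no trend (37.3%). With a filter on dim genes it was 21 of the 26 Hox genes left, where 64.4% of all genes left were called.

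The spread between arrays is given here for called genes, and the call itself depends on that spread. The median SD of the 21 was 0.22 on the log2 scale, and that of all 7437 called genes 0.27. Over all Hox genes, called or not, it was 0.22, and over all genes tested it was also 0.22. The highest and lowest array differed by over 1 log2 unit in 2 of the 21 (9.52%), where 13.7% of all called genes did. Both were group 5 paralogs, Hoxa5 (1.33) and Hoxb5 (1.08), and both were highest on replicate 4 and lowest on replicate 5. Hoxd9 (0.10), Hoxb7 (0.16), Hoxa4 (0.19) and Hoxd3 (0.21) had the smallest ranges among the called genes.

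The arrays did not order the Hox genes alike. Replicate 4 was the highest array for 11 of 21 called Hox genes, replicate 2 for 4 and replicate 5 for 6, where the shares of all called genes were 35.4%, 43.8% and 20.8%. Replicate 5 was the lowest for 8, replicate 2 for 8 and replicate 4 for 5, where the shares of all called genes were 52.8%, 21.1% and 26.1%. The median difference of replicate 4 from the mean of the others was 0.15 over called Hox genes and 0.05 over all called genes. For replicate 2 it was -0.00 against 0.12 and for replicate 5 -0.02 against -0.19. With quantile normalization the Hox medians for replicates 2, 4 and 5 were -0.09, 0.12 and 0.15, and with median centring 0.06, 0.19 and -0.12, so the sign held for replicate 4 only. These are descriptions of 3 arrays, with no test.

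Different called genes were low on different arrays. Hoxa5, Hoxc6, Hoxb5, Hoxd10, Hoxd8, Hoxb9, Hoxa10 and Hoxd3 were lowest on replicate 5, with differences from the mean of the others of -1.17, -0.83, -0.81, -0.72, -0.58, -0.50, -0.36 and -0.11. Hoxb6, Hoxc10, Hoxd4, Hoxb3, Hoxa9, Hoxb1, Hoxd11 and Hoxb4 were lowest on replicate 2, from -0.55 for Hoxb6 and -0.51 for Hoxc10 to -0.26 for Hoxb4. On replicate 5 the medians over called members of the thick ascending limb list (-0.75) and the proximal tubule list (-0.71) were also below the other arrays. Called endothelial markers had medians of 0.89, -0.56 and -0.79 on replicates 2, 4 and 5, so they stood high on replicate 2. On replicate 2 principal cell (-0.76) and intercalated cell (-0.37) markers were lower, and on replicate 4 they were higher (0.60 and 0.42). The called smooth muscle (0.27, -0.19 and -0.03 on replicates 2, 4 and 5) and pericyte markers (0.03, -0.01 and 0.04) differed less. The part of these cells in the Hox differences was not tested.

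**Figure D3:**
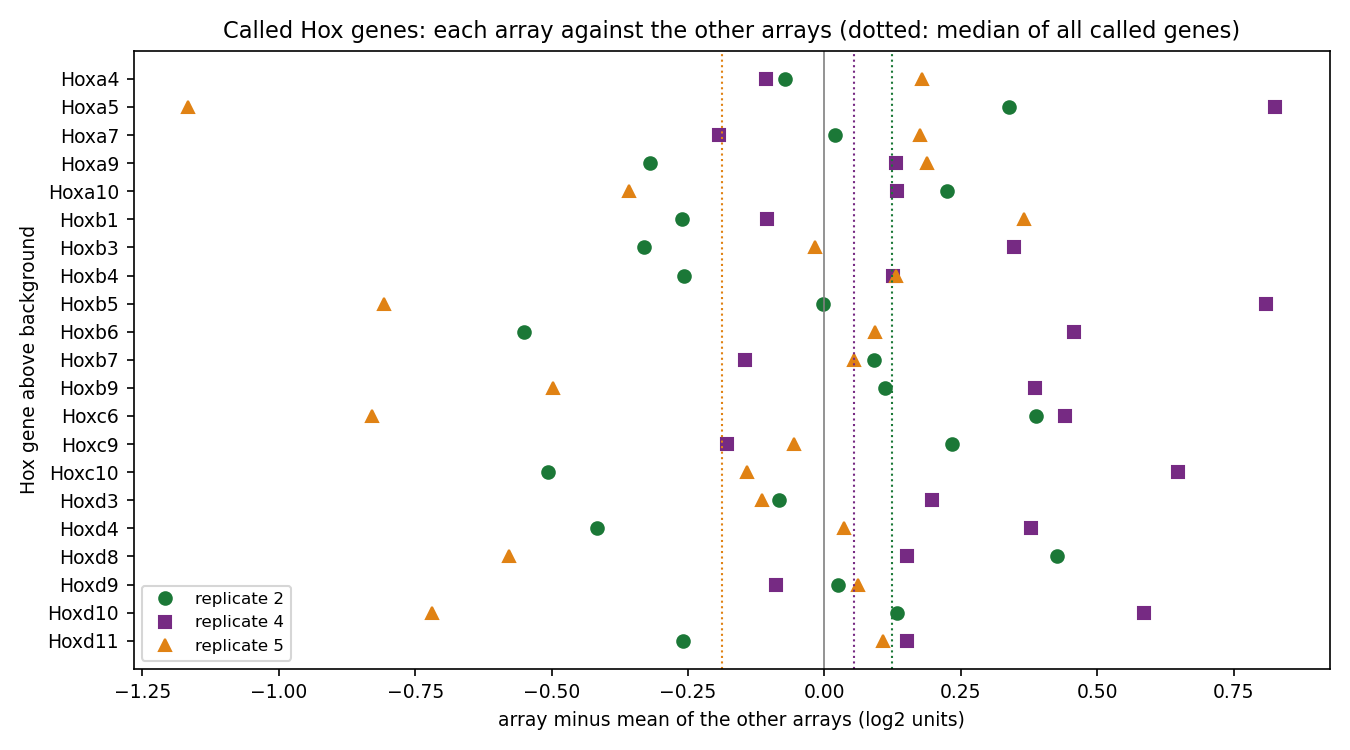
Each called Hox gene's log2 signal on 1 array minus the mean of the other arrays, 1 symbol per array, with the median of all 7437 called genes for each array as a dotted line (0.12, 0.05 and -0.19 for replicates 2, 4 and 5). Hoxa5 and Hoxb5 are spread widest, high on replicate 4 and low on replicate 5, while Hoxd9 and Hoxb7 stay near 0.

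Hox clusters also encode microRNAs and antisense RNAs, and these were mostly under background. Mature forms of miR-10 and miR-196 are shown because their genes lie among the called Hox genes, and those of miR-615 because its gene was called, with the seed (bases 2 to 8) in capitals, from RefSeq, GRCm38.p6.
miR-10a-5p: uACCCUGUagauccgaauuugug
miR-10b-5p: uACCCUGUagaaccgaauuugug
miR-196a-5p: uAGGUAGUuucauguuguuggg
miR-196b-5p: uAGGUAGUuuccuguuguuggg
miR-615-5p: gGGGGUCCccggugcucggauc
miR-615-3p: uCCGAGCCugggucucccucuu
miR-10a-5p and miR-10b-5p share a seed and differ by U12A, counted from the 5′ end, and miR-196a-5p and miR-196b-5p share another and differ by A12C. miR-10a-5p lies on the plus strand at chr11:96317186-96317208 and miR-10b-5p on the plus strand at chr2:74726074-74726096. Mir10a lies between Hoxb5 and Hoxb4, Mir10b in the part of Hoxd that holds Hoxd3 and Hoxd4, Mir196b between Hoxa9 and Hoxa10, Mir196a-1 between Hoxb13 and Hoxb9, and Mir196a-2 between Hoxc10 and Hoxc9. The probe sets named for Mir10a (3.08 ± 0.08), Mir10b (3.44 ± 0.29), Mir196a-1 (4.96 ± 0.36), Mir196a-2 (4.82 ± 0.26) and Mir196b (6.18 ± 0.22) were not called. Such probe sets on an array of amplified cDNA need not report the mature microRNA.

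Mir615, which lies inside Hoxc5, was the 1 called among 9 measured noncoding RNAs (11.1%), of 17 listed, where 37.3% of all genes were called. It stood at 7.85, 7.83 and 7.98, 1.55 above background (limma adjusted p = 0.000281), while Hoxc5 itself was below the level. The antisense RNA Hoxd3os1 had signals of 6.99, 6.86 and 6.32 and was not called (limma adjusted p = 0.130). It was called without replicate 5, which made the count 2 of 9, where 39.2% of all genes were called. Hoxaas2 (6.18 ± 0.17) and Hottip (5.67 ± 0.21), at the 5′ end of Hoxa, were not called.

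Of the genes for the TALE partners of Hox proteins 3 of 8 were called, a share like the 37.3% of all genes. Meis2 stood at 8.77, 8.61 and 7.91, Meis1 at 8.14 ± 0.13 and Pbx2 at 7.36 ± 0.14, which were 2.09, 1.80 and 1.02 above background (limma adjusted p = 0.000296, 0.000167 and 0.00180). Meis3 (6.68 ± 0.31), Pbx4 (6.50 ± 0.12), Pknox2 (6.13 ± 0.14), Pbx3 (6.11 ± 0.46) and Pknox1 (5.96 ± 0.13) were not called.

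Transcripts of chromatin proteins known to keep Hox genes on or off were called for most members, where 37.3% of all genes were called. Of 12 trithorax-type proteins and demethylases of the Polycomb mark, 10 were called, with Kmt2d (10.06 ± 0.28), Dpy30 (9.96 ± 0.67) and Kmt2a, the founding activator of Hox genes (9.06 ± 0.27), at 3.72, 3.61 and 2.72 above background. Wdr5 (6.59 ± 0.43) was not called. Of 21 Polycomb genes 15 were called, among them Phc3 (11.05 ± 0.39), Eed (8.49 ± 0.27) and Suz12 (8.22 ± 0.11), and Phf19 (5.52 ± 0.14) was below the level. CTCF and the cohesin genes, which shape the borders between active and silent Hox chromatin, were called in 7 of 7 cases, with Rad21 at 10.78 ± 0.15, Smc1a at 10.21 ± 0.38, Smc3 at 9.92 ± 0.54 and Stag2 at 7.81 ± 0.38. With background at the 99th percentile 6 of 12 trithorax-type genes and demethylases, 3 of 21 Polycomb genes and 6 of 7 CTCF and cohesin genes were called. Of all genes 16.6% were called at that level, so the Polycomb share was below it. Genes of these lists are used in most cell types, and no mark was measured here.

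Retinoic acid, which switches on 3′ Hox genes in the embryo, had 6 of 17 pathway genes called, near the 37.3% of all genes. The called ones included Dhrs3 (9.95 ± 0.39) and Rdh10 (9.55 ± 0.44), which interconvert retinal and retinol, and the retinoic acid synthase gene Aldh1a2 (8.29 ± 0.25). The degrading enzyme gene Cyp26a1 (4.80 ± 0.10) was below the level. Of 11 ParaHox and other Hox-like homeobox genes 0 were called by limma, also at an unadjusted p under 0.05, and Gbx2 came nearest, at -0.03 against background. With a level from vomeronasal receptor genes 7 of these 11 passed, near the 65.9% of all genes that did. Cdx4, which acts on Hox genes in the tail bud, lay at -2.34. Of 12 kidney development genes that act with Hox genes 4 were called (33.3%), near the 37.3% of all genes. They were Itga8, an integrin of mesangial and stromal cells (8.12 ± 0.29), the nephron and duct genes Pax8 (7.38 ± 0.45) and Pax2, and Sall1 (7.09 ± 0.17). Eya1 (5.24 ± 0.16) was below the level.

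**Figure D4:**
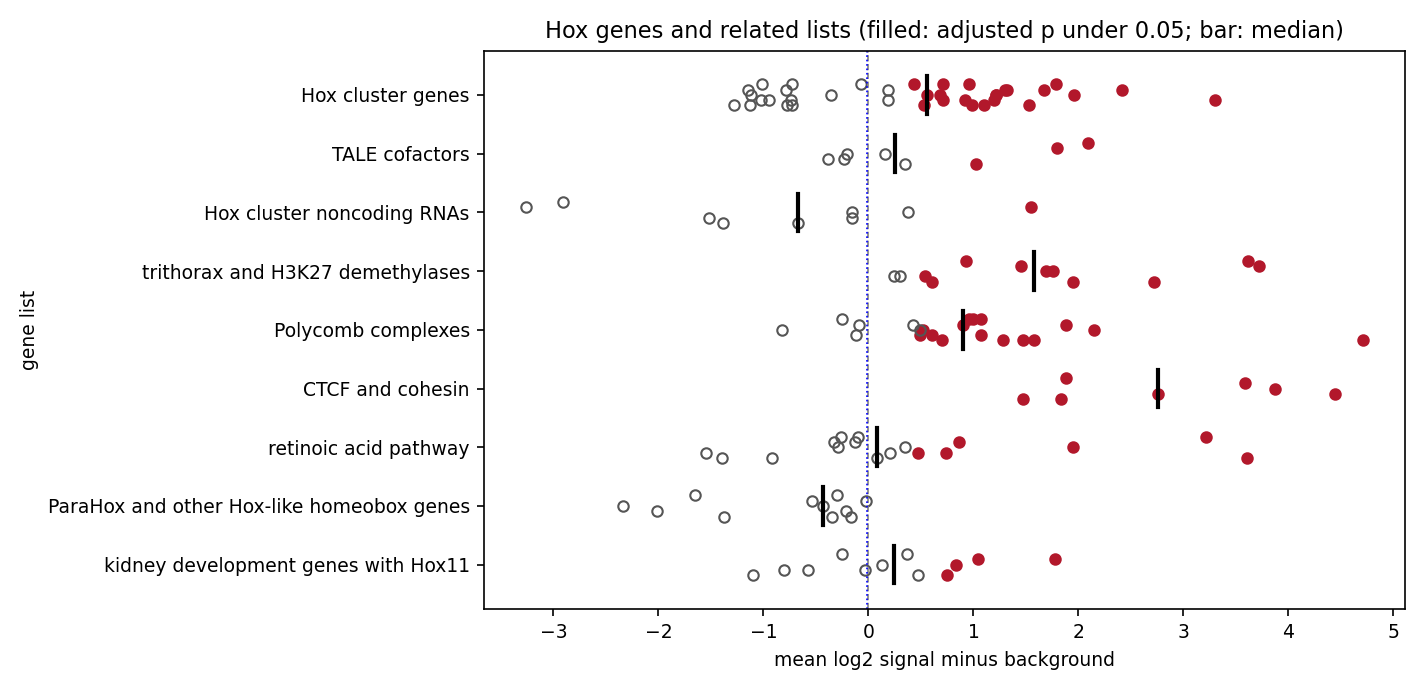
Mean log2 signal minus background for each member of the Hox genes and of 8 related lists, filled where limma's one-sided test passed and open where it did not, with the list median as a bar; background (dashed, at 0) and the median of all genes (dotted, at -0.01) nearly coincide. All 7 CTCF and cohesin genes are filled, and none of the 11 ParaHox and related genes is.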

How the data were processed

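RNA of 3 sorted samples was amplified in 1 round, labelled with biotin and read on single-colour Affymetrix arrays, per the labels. For each probe set and array the authors deposited 1 log2 signal, a scale judged from the values since no source states the log base. The submitters' processing notes name Affymetrix Expression Console; what version, summary method or normalization was used is not given in the sources used here. Precision is limited by the number of arrays, 3.

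Platform annotation gave 1 symbol to 21789 of 35557 probe sets, several to 1621 (left out) and none to 12147. RefSeq (GRCm38.p6) held 21698 of the 21789 by Entrez identifier and changed 0 symbols. The brightest probe set stood for each of 999 genes with more than 1, which left 19938 genes. From each signal the array's background was subtracted, the 95th percentile over 1027 olfactory receptor genes. An intercept was fitted with limma 3.58.1 (R 4.3.3; eBayes, trend), tested one-sided and adjusted by Benjamini-Hochberg over all genes at 0.05; the fit was checked on simulated data. Tables and figures used Python 3.11.15, pandas 2.3.3, numpy 2.4.6 and matplotlib 3.10.9. Promoters and microRNAs came from RefSeq; protein sequences, although planned, were not used here.

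The members and lists were chosen with earlier results of these data known. The text names all Hox genes, cofactors and cluster RNAs; of other lists the 3 called members furthest above background and the lowest, with all called genes where few; and the first 2 markers of each cell type. Alternatives were 90th and 99th percentiles, levels from 167 vomeronasal receptor genes or (added after the data were seen) 44 keratin-associated protein genes, probe set means, quantile and median normalization, no trend, a filter on dim genes and leaving out each array.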

Additional observations from a re-analysis of the deposited data

How the results depend on the processing

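The counts under 5 settings (median centring, quantile normalization, means of probe sets, no trend and a filter on dim genes) stayed within 1.5 times those reported, for the Hox genes, their clusters and the related lists. All 37 Hox genes kept their direction and side of the threshold in the first 4, as did the 26 genes left by the filter. The Hox medians by array moved by less than the median SD of called Hox genes under probe set means, quantile normalization and median centring. The counts moved with the level, which is higher at the 99th percentile and with keratin-associated genes and lower with the others. The share of all genes called moved too. It was 16.6% at the 99th percentile, 50.0% at the 90th, 65.9% with vomeronasal receptor genes and 3.56% with keratin-associated genes. At the 99th percentile 5 Hox genes were called, with 0 in Hoxa, 1 in Hoxb, 1 in Hoxc, 3 in Hoxd, 0 in groups 1 to 3, 2 in groups 4 to 8 and 3 in groups 9 to 13. The lists then gave 6 trithorax, 3 Polycomb, 3 retinoic acid and 1 kidney development gene. At the 90th percentile there were 5 TALE, 2 noncoding, 1 ParaHox and 8 kidney development genes. With vomeronasal receptor genes there were 8 TALE, 4 noncoding, 14 retinoic acid, 7 ParaHox and 10 kidney development genes. With keratin-associated genes, chosen after seeing the data, the count was 0 for all Hox genes, for each cluster and group and for the TALE, noncoding, trithorax, retinoic acid and kidney development lists, 1 for Polycomb and 2 for cohesin.

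Heights that changed sign, in log2 units, were as follows. At the 99th percentile they were Hoxa7 -0.34, Hoxa10 -0.18, Hoxa11 -0.68, Hoxb2 -0.68, Hoxb9 -0.31, Hoxc6 -0.15, Hoxd3 -0.43, Hoxd11 -0.15. At the 90th they were Hoxa6 0.30, Hoxc8 0.0064. With vomeronasal genes they were Hoxa6 0.76, Hoxb13 0.045, Hoxc4 0.097, Hoxc5 0.097, Hoxc8 0.47, Hoxc12 0.090, Hoxd12 0.056. With keratin-associated genes they were Hoxa4 -1.11, Hoxa5 -1.03, Hoxa7 -1.80, Hoxa9 -1.41, Hoxa10 -1.64, Hoxa11 -2.14, Hoxb1 -1.34, Hoxb2 -2.14, Hoxb3 -1.11, Hoxb4 -1.01, Hoxb5 -0.54, Hoxb6 -0.80, Hoxb7 -1.13, Hoxb9 -1.77, Hoxc6 -1.62, Hoxc9 -0.65, Hoxc10 -1.37, Hoxd3 -1.89, Hoxd4 -1.23, Hoxd9 -0.36, Hoxd11 -1.61. Over the fits that left out 1 array Hoxa11 ran from -0.11 to 0.53 and Hoxa6 from -0.12 to 0.010. Leaving out an array gave 15 to 22 Hox genes, 3 to 6 in Hoxa, 5 to 9 in groups 9 to 13 and 1 to 2 noncoding RNAs. No paired analysis was possible because the series holds 1 group. With an array left out, the cause of the changes was not tested.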
